A study of Mus musculus with 8 samples.

Results

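The comparison described here set the control miRNA culture against the control shRNA culture at the primary neurosphere stage, 1 array against 1 array, out of 8 arrays in the series. Its members were chosen by their titles alone, and each value is the log2 intensity of an array probe relative to the 75th percentile of its own array. Neurospheres were grown from EB3 mouse embryonic stem cells that had formed embryoid bodies (cell aggregates) with Noggin, a BMP antagonist. The day 6 bodies were dissociated, plated with lentivirus particles at about 25 per cell and grown in suspension for 6 days in hormone mix medium with 20 ng/ml FGF2, as passage 0. The control shRNA vector targets firefly luciferase and the control miRNA vector targets lacZ, neither of which is a mouse gene. The other 2 primary arrays hold cultures infected with an shRNA against both Nr2f1 and Nr2f2 (nuclear receptors) and with a miR-17 vector. Tertiary neurospheres (passage 2) of the same 4 vectors make up the remaining 4 arrays. Every culture thus carried a lentiviral vector, and none was left uninfected. The labels name 1 stem cell line and do not say whether the cultures came from separate differentiations.

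Neurospheres are floating colonies of neural stem and progenitor cells that FGF2 keeps dividing. Noggin removes BMP signals and lets embryoid body cells turn to a neural fate. Without further cues such cells tend to take forebrain or midbrain identity, and signals such as Wnt, FGF8 and retinoic acid move them caudally. Embryoid bodies also hold leftover pluripotent cells, mesoderm and endoderm, so a neurosphere culture can carry some of each.

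Each of the 2 control arrays holds 1 culture, so their difference has no replicate. To obtain a spread, limma compared the 2 miRNA arrays with the 2 shRNA arrays at passage 0, with Benjamini-Hochberg adjustment over 25581 genes. Its spread is that between the 2 arrays of each vector system. The control arrays enter both this spread and the difference tested, so the fit is no independent test of the control pair. In that fit the knockdown and the miR-17 vector count as spread, and its p-values measure only the spread between these arrays. The shRNA arrays lay in column 1 and the miRNA arrays in column 2 of the same slide, so vector system and slide column cannot be told apart. On the arrays, 57.0% of the probes were well above background on the control shRNA array and 64.4% on the control miRNA array, no spot was saturated, and spots repeated on an array had a median coefficient of variation of 4.95% and 4.81%.

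Both cultures carried the profile that their label names. All 19 neural stem and progenitor genes examined were well above background on both control arrays, and their median difference, control miRNA minus control shRNA, was 0.09. Sox2, a neural stem cell factor, read 3.15 on the control shRNA array and 3.23 on the control miRNA array. Vim, an intermediate filament of progenitors, read 6.33 and 6.86, and Hes5, a Notch target, read 5.87 and 6.53. Pax6, which marks the dorsal forebrain, read 0.65 and −0.44, and was the only member with a 2-fold difference (adjusted p = 0.0264, and 0.0635 to 0.154 with each array left out). With arrays centred on their medians the median of this list was −0.25, and those of the oxidative phosphorylation, cholesterol and unfolded protein response lists, between 0.06 and 0.29 as reported, also turned negative.

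The difference between the control cultures was large and lopsided. Of 25359 genes well above background on at least 1 of the control arrays, 4111 (16.2%) were at least 2-fold higher on the control miRNA array and 1182 (4.66%) were at least 2-fold lower. Of the 4111 higher genes, 2201 were not well above background on the control shRNA array, against 239 of the 1182 lower genes that were dim on the control miRNA array. Among the 22143 genes well above background on both arrays, 1910 (8.63%) were higher and 943 (4.26%) lower. Counts within the gene lists below are to be read beside these shares. Higher genes made up 77.7% of the 2-fold calls, but 67.2% when a gene had to be well above background on all 4 primary arrays, 63.8% after quantile normalization and 53.4% with arrays centred on their medians. The last 2 scalings moved the median difference by −0.10 and −0.34, and the differences given below are relative to the 75th percentile.

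The miR-17 and Nr2f1/2 shRNA arrays, which share no array with the control pair, shared part of this difference. Of the 4111 higher genes 77.6% were also at least 2-fold higher on the miR-17 array than on the Nr2f1/2 shRNA array, and of the 1182 lower genes 39.1% were also at least 2-fold lower; 40 and 28 genes went the opposite way by that amount. Genes 2-fold higher in both pairs numbered 3189 (12.6%) and genes lower in both 462 (1.82%). In limma 3344 genes (13.1%) were higher with the miRNA vectors and 819 (3.2%) lower. Those counts depend on single arrays. They were 1248 and 229 without the miR-17 array, 2509 and 329 without the control miRNA array, 2595 and 357 without the control shRNA array, and 3380 and 374 without the Nr2f1/2 shRNA array, each time with a lone array assumed to vary like the others. Of the 165 named or listed genes that limma called, 72 were called in each of those 4 fits.

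At passage 2 the control pair had 2192 genes (9.18%) at least 2-fold higher and 3245 (13.6%) lower. Of the genes higher at passage 0, 675 were again at least 2-fold higher and 640 were at least 2-fold lower on the tertiary arrays, and of the lower genes 461 were lower again and 98 higher. Over the 22143 genes, Pearson's r across genes was 0.777 between the 2 primary pairs and 0.105 between the control pairs of the 2 passages. Genes of an array share its labelling and scan and are not replicates, so these coefficients are descriptions.

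**Figure D1:**
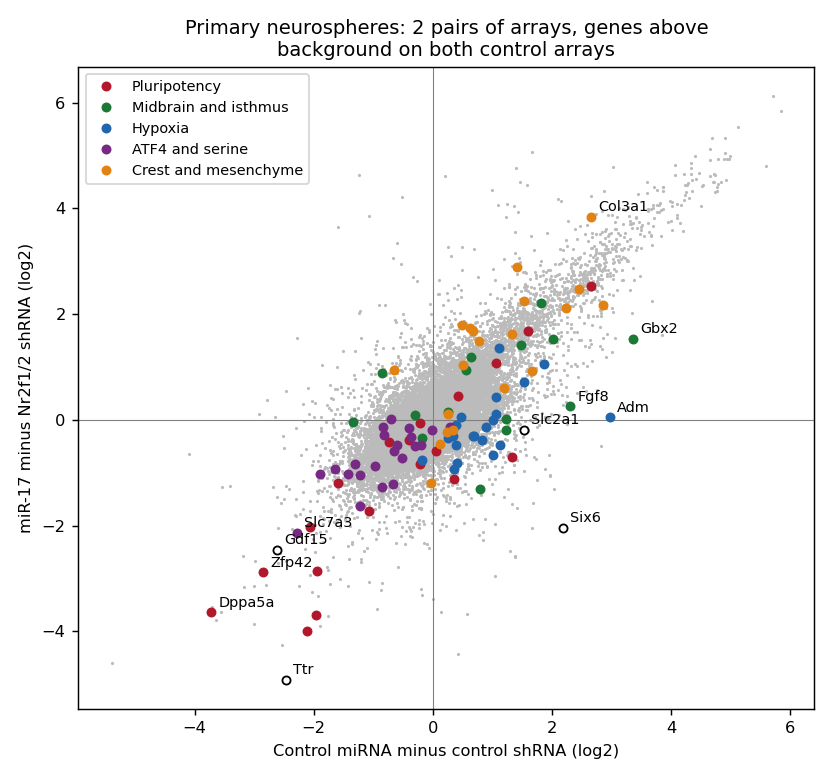
Each point is 1 of the 22143 genes well above background on both primary control arrays, with its log2 difference control miRNA minus control shRNA on the horizontal axis and miR-17 minus Nr2f1/2 shRNA on the vertical axis. Coloured points are members of 5 gene lists and open circles are other named genes. Dppa5a, Zfp42, Slc7a3 and Col3a1 lie near the diagonal, whereas Adm (2.97 and 0.05) and Slc2a1 (1.53 and −0.18) lie near the horizontal line and Six6 (2.18 and −2.03) below it.

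Several genes of naive pluripotency were lower in the control miRNA culture. Of the 19 pluripotency genes well above background on both control arrays 8 were at least 2-fold lower and 4 higher, and 8 passed limma as lower and 3 as higher. Over all genes above background on both control arrays 4.26% were lower and 8.63% higher by that amount. In limma 3.2% of all genes passed as lower and 13.1% as higher. The 19 genes had a median difference of −0.40, against 0.01 over all genes above background on both control arrays, and −0.83 in the other primary pair. Dppa5a, an RNA-binding protein of embryonic stem cells, read 4.38 on the control shRNA array, 4.34 on the Nr2f1/2 shRNA array, 0.65 on the control miRNA array and 0.71 on the miR-17 array. It was 13.2-fold lower in the control pair and 12.4-fold lower in the other pair (limma log2 −3.68, SE 0.17, adjusted p = 0.00513). The 2 shRNA arrays lay within 0.1 of each other and so did the 2 miRNA arrays.

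Zfp42 (also called Rex1), a marker of undifferentiated stem cells, followed the same course. It read −0.74 and −0.50 on the shRNA arrays and −3.59 and −3.38 on the miRNA arrays, a 7.21-fold difference between the controls (limma log2 −2.86, SE 0.20, adjusted p = 0.00513). Fgf4, the FGF ligand of pluripotent cells, fell from −1.20 to −3.31. Dnmt3l, a cofactor of DNA methylation in stem and germ cells, fell from −2.49 to −4.56, and Esrrb, a receptor of the naive state, fell from 0.45 to −1.15. These 3 genes also passed limma with each array left out. The core factors differed little: Pou5f1 (Oct4) read −3.54 and −3.18, and Nanog 0.25 and −0.14, neither past limma's threshold.

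Some pluripotency-linked genes were higher. Tbx3, a T-box factor of naive cells and of several organs, rose from −2.72 to −0.07 (limma log2 2.60, SE 0.30, adjusted p = 0.00801, and 0.0531 without the miR-17 array). Tdgf1, the Nodal co-receptor Cripto, rose from 1.24 to 2.84 (adjusted p = 0.0306, and 0.0617 and 0.105 without the control shRNA or the miR-17 array). Lefty2, a Nodal inhibitor, rose from −1.55 to −0.02 (adjusted p = 0.0186, and 0.056 without the miR-17 array). Of 3 germ-cell genes well above background on both control arrays 1 was at least 2-fold lower and none higher. Sycp3, a component of the meiotic synaptonemal complex, was at least 4.59-fold lower, being not well above background on either miRNA array. It was kept only through the shRNA arrays, so the filter fixed its direction. The X-linked tumour antigen Trap1a was 9.03-fold lower in the control pair and 8.94-fold lower in the other pair, with both shRNA arrays far above both miRNA arrays.

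The 12 genes with the lowest differences shared by the pairs, picked by rank and therefore a description, included stem-cell genes and secreted or lysosomal proteins. Apoc1, an apolipoprotein of visceral endoderm and liver, was 9.07-fold lower in the control pair and 5.96-fold lower in the other. Igfbp1, an insulin-like growth factor binding protein, was 11.6-fold and 2.41-fold lower. Ctsc, a lysosomal protease, was 7.98-fold and 14.6-fold lower. Of these 12, 10 passed limma. They were picked for large differences shared by both pairs, and limma tested the arrays of those same pairs. That count is therefore largely set by the picking and is no separate test.

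Dorsal telencephalic and cortical hem genes were lower in the control miRNA culture. Of 18 measured forebrain genes 5 were at least 2-fold lower and 2 higher, with a median difference of −0.50 over 16, and −0.69 in the other pair. Over all measured genes 4.66% were lower and 16.2% higher by that amount. Tbr1, a T-box factor of early cortical neurons, read 4.41 and 4.14 on the control and Nr2f1/2 shRNA arrays and 2.16 and 1.0 on the control and miR-17 miRNA arrays. It was 4.75-fold lower in the control pair (limma log2 −2.69, SE 0.41, adjusted p = 0.0164), and its 2 probes gave nearly the same difference. Eomes (Tbr2), which marks intermediate cortical progenitors, fell from 1.94 to 0.22 (adjusted p = 0.0183, and 0.0548 without the miR-17 array).

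Roof plate and hem signals went with them. Wnt8b, a Wnt ligand of the cortical hem, read 1.13 and 1.38 on the shRNA arrays and −0.80 and −1.95 on the miRNA arrays (limma log2 −2.63, SE 0.41, adjusted p = 0.017). Rspo2, an R-spondin that strengthens Wnt signals, read 3.22 and 3.07 against 1.40 and 1.78 (adjusted p = 0.0128). Rspo3 read 3.45 and 2.92 against 1.41 and −0.32 (adjusted p = 0.0442, and 0.068 without the miR-17 array). Of 19 measured roof plate genes these 3 and Gdf10, a TGF-beta family ligand that was at least 3.97-fold lower, were the only 2-fold differences, and all 4 passed limma. The rest of that list moved little: Olig3 read 0.13 and 0.07.

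Other forebrain factors differed less. Otx2, of forebrain and midbrain, read 5.90 and 5.82 on the control arrays. Emx2, of the dorsal telencephalon, read 0.32 and −0.75 there, and its limma call (adjusted p = 0.0202) was lost with any of the 4 arrays left out (adjusted p from 0.0596 to 0.0963).

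Genes of the midbrain-hindbrain boundary (the isthmus), a signalling centre that patterns midbrain and cerebellum, were higher. Of 15 measured, 7 were at least 2-fold higher and 1 lower, with a median difference of 0.80, and 0.27 in the other pair. Over all genes well above background on both control arrays, 8.63% were higher and 4.26% lower by that amount. In limma 3 of the 15 passed as higher, against 13.1% of all genes. Gbx2, which marks its hindbrain side, read −3.91 on the control shRNA array and −0.56 on the control miRNA array, a 10.2-fold difference. On the Nr2f1/2 shRNA and miR-17 arrays it read −3.89 and −2.36, and limma did not call it (adjusted p = 0.0527). Fgf8, the ligand that organises the boundary, was 4.94-fold higher in the control pair, from −1.62 to 0.68, but read −0.30 and −0.04 in the other pair (adjusted p = 0.155).

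The paired box genes of the boundary differed in both pairs. Pax5 read −4.49 and −4.50 on the shRNA arrays and −2.67 and −2.28 on the miRNA arrays (limma log2 2.02, SE 0.21, adjusted p = 0.00655). Pax2 was 4.05-fold higher in the control pair and 2.88-fold higher in the other (adjusted p = 0.0162, and 0.0629 and 0.084 without the control miRNA or the miR-17 array). En1, a homeobox gene of midbrain and anterior hindbrain, read −3.72 and −3.84 against −2.25 and −2.41 (adjusted p = 0.0101). Sp5, a Wnt target of caudal tissue and isthmus, read −0.37 and −0.29 against 1.75 and 1.3 (adjusted p = 0.0105). Pax5, En1 and Sp5 passed with each array left out. Wnt1, the ligand of the midbrain side, read 1.01 and 0.83 on the control arrays, and En2 read 3.70 and 4.34.

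Eye field and retinal genes split. Vsx1, a homeobox factor of retinal bipolar cells, read −4.21 and −4.23 on the shRNA arrays and −2.02 and −1.02 on the miRNA arrays, and was 4.56-fold higher in the control pair and 9.24-fold higher in the other (adjusted p = 0.0115). Six6, a factor of the eye field and hypothalamus, was 4.54-fold higher in the control pair, from −2.17 to 0.01, and 4.1-fold lower in the other pair, from −2.0 to −4.03. Rax, which initiates eye formation, was likewise 2.47-fold higher in one pair and 5.55-fold lower in the other. Crx, of photoreceptors, was at least 7.98-fold lower on the control miRNA array (adjusted p = 0.0505). Of 14 eye field genes 5 were at least 2-fold higher and 4 lower.

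Hindbrain genes differed little in the control pair: of 10 well above background on both control arrays 1 was at least 2-fold higher and none lower, 7 were negative, and the median was −0.06, with 0.76 in the other pair. Hox genes, which mark hindbrain, spinal cord and trunk, sat near the limit of detection. Of 39 Hox genes examined 14 were well above background on at least 1 control array, 5 on the control shRNA array and 14 on the control miRNA array. The direction of those above background on the control miRNA array alone was fixed by that, and of the 5 measured on both arrays 2 were at least 2-fold higher, none was 2-fold lower, and 1, Hoxa7, passed limma. Hoxa7 read −3.94 and −3.61 on the shRNA arrays and −2.36 and −1.06 on the miRNA arrays (adjusted p = 0.0418, and 0.0669 without the miR-17 array). Hoxc13, a far posterior member, was dim on both shRNA arrays and at least 2.34-fold higher on the control miRNA array. Caudal lobe genes were less uniform, with T (Brachyury), of primitive streak and notochord, at −3.03 and −1.44 on the control arrays but −2.68 and −2.87 on the other pair.

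Pan-neuronal genes were slightly lower in the control pair alone. All 25 pan-neuronal genes were well above background on both control arrays, 22 of them lower on the control miRNA array, with a median difference of −0.39. In the other pair 20 of the 25 were higher, with a median of 0.35. Dcx, a microtubule protein of young neurons, read 3.35 and 2.60 on the control arrays and 3.09 and 3.2 in the other pair. Neurog2, a proneural factor of excitatory neurons, read 2.55 and 0.81, then 1.73 and 1.96. Tubb3, neuronal tubulin, read 4.63 and 4.62. None of the 25 passed limma as lower, and the 1 that passed as higher, Snap25, rests on a probe described below.

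Mesodermal genes were higher. Of 11 mesoderm genes well above background on both control arrays 7 were at least 2-fold higher and none lower, and 6 passed limma. Over all genes above background on both arrays 8.63% were 2-fold higher, and 13.1% of all genes passed limma as higher. Another 6 mesoderm genes were above background on the control miRNA array alone. The median difference over the 11 was 1.53, and 1.67 in the other pair. Meox2, a homeobox factor of somites and muscle, read −3.15 and −3.27 on the shRNA arrays and −0.47 and 0.19 on the miRNA arrays. It was 6.39-fold higher in the control pair (limma log2 3.07, SE 0.27, adjusted p = 0.00535), and both miRNA arrays were more than 2 units above both shRNA arrays.

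Heart and pharyngeal factors were among them. Tbx1, of pharyngeal mesoderm, read −2.79 and −2.39 against −0.44 and 0.25 (adjusted p = 0.0092). Tbx5, of the heart and forelimb, was not well above background on either shRNA array and was at least 4.38-fold higher on the control miRNA array. Its direction was fixed by the filter, since it was kept only through the miRNA arrays. Bmp4, a ligand of lateral mesoderm and of the dorsal neural tube, rose from −0.43 to 1.10 (adjusted p = 0.014, and 0.0615 without the miR-17 array). Contractile genes differed less consistently: Actc1, cardiac actin, read −3.55 and −2.09, then −3.00 and −3.07 in the other pair, and Myh7 read 0.23 and 0.43.

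Mesenchymal matrix genes showed the same direction at clearly measured levels. Of 20 neural crest and mesenchyme genes, all well above background on both control arrays, 9 were at least 2-fold higher and none lower. Positive differences numbered 18, and 8 genes passed limma. The shares over all genes were 8.63% for 2-fold higher on such arrays and 13.1% for limma. Col3a1, a fibrillar collagen of loose connective tissue, read 0.29 and 0.19 on the shRNA arrays and 2.95 and 4.03 on the miRNA arrays, 6.32-fold and 14.4-fold differences (limma log2 3.25, SE 0.38, adjusted p = 0.00846). Lum (lumican), a proteoglycan that binds collagen, read −1.54 and −1.04 against 1.33 and 1.14 (adjusted p = 0.00565). Dcn (decorin), a related proteoglycan, read −0.37 and −0.60 against 1.86 and 1.51 (adjusted p = 0.006).

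Transcription factors of this list were divided. Ets1, a factor of crest and endothelium, read −3.30 and −3.31 on the shRNA arrays and −1.77 and −1.07 on the miRNA arrays (adjusted p = 0.0153), and held with each array left out. Prrx2, of limb and facial mesenchyme, read −1.81 and −1.67 against −0.49 and −0.04 (adjusted p = 0.0168, and 0.0612 without the miR-17 array). Its relative Prrx1 and Twist1, a mesenchymal factor, were also called (adjusted p = 0.0271 and 0.0384), each in 1 of the 4 fits with an array left out (0.0212 to 0.102 and 0.0442 to 0.121). Sox10, of migrating crest and glia, read −2.61 and −2.37 on the control arrays, Pax3 −0.78 and −0.53, and Tfap2a −2.26 and −2.14. Of 21 extracellular matrix genes 6 were at least 2-fold higher and 1 lower. The lower one was Col5a2, another fibrillar collagen, at −0.86 and −0.65 on the shRNA arrays against −2.41 and −2.28 (adjusted p = 0.00868), the opposite of its neighbour Col3a1. Fn1, fibronectin, read 3.0 and 2.98. In bulk RNA, more cells of a type and more RNA per cell cannot be told apart.

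Endothelial genes were sparse. Of 8 well above background on both control arrays 1, Flt1, was at least 2-fold higher and none lower, with a median of 0.13, and another 3 were above background on the control miRNA array alone. Etv2, a factor that specifies endothelium and blood, read −5.05 and −4.97 on the shRNA arrays, where it was not well above background. On the miRNA arrays it read −2.46 and −1.87, and being kept only through them it had its direction fixed by the filter. Flt1, a VEGF receptor, read −1.73 and −1.69 against 0.10 and 0.80 (adjusted p = 0.0109). Pecam1, a general endothelial adhesion molecule, read −2.83 and −2.79, and Kdr, another VEGF receptor, read 3.36 and 2.79.

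Endodermal genes were mixed. Among serum protein genes Afp and Ttr were lower with the miRNA vectors, and Trf (transferrin) was higher (limma log2 1.22, adjusted p = 0.0306). The Trf call did not hold in every fit with an array left out. Of 14 endoderm genes well above background on both control arrays 7 were positive and 7 negative, 2 were at least 2-fold lower and 1 higher, and the median was 0.09, with 0.68 in the other pair. Afp, a serum protein of visceral endoderm and fetal liver, read −2.75 and −2.92 on the shRNA arrays. It was not well above background on either miRNA array and was at least 4.29-fold lower in the control pair. Afp was kept only through the shRNA arrays, so the filter fixed its direction. Ttr, the thyroxine carrier made by visceral endoderm and choroid plexus, fell from 1.98 to −0.49 in the control pair and from 2.19 to −2.72 in the other, 5.53-fold and 30.1-fold (limma log2 −3.69, SE 0.73, adjusted p = 0.0313). The streak factor Mixl1 read −1.10 on the control shRNA array and −4.23 on the Nr2f1/2 shRNA array and was not well above background on either miRNA array. It was at least 13.5-fold lower in the control pair, and like that of Afp its direction was fixed by the filter. Sox17, a definitive endoderm factor, read −3.35 and −4.54, then −3.22 and −2.62.

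**Figure D2:**
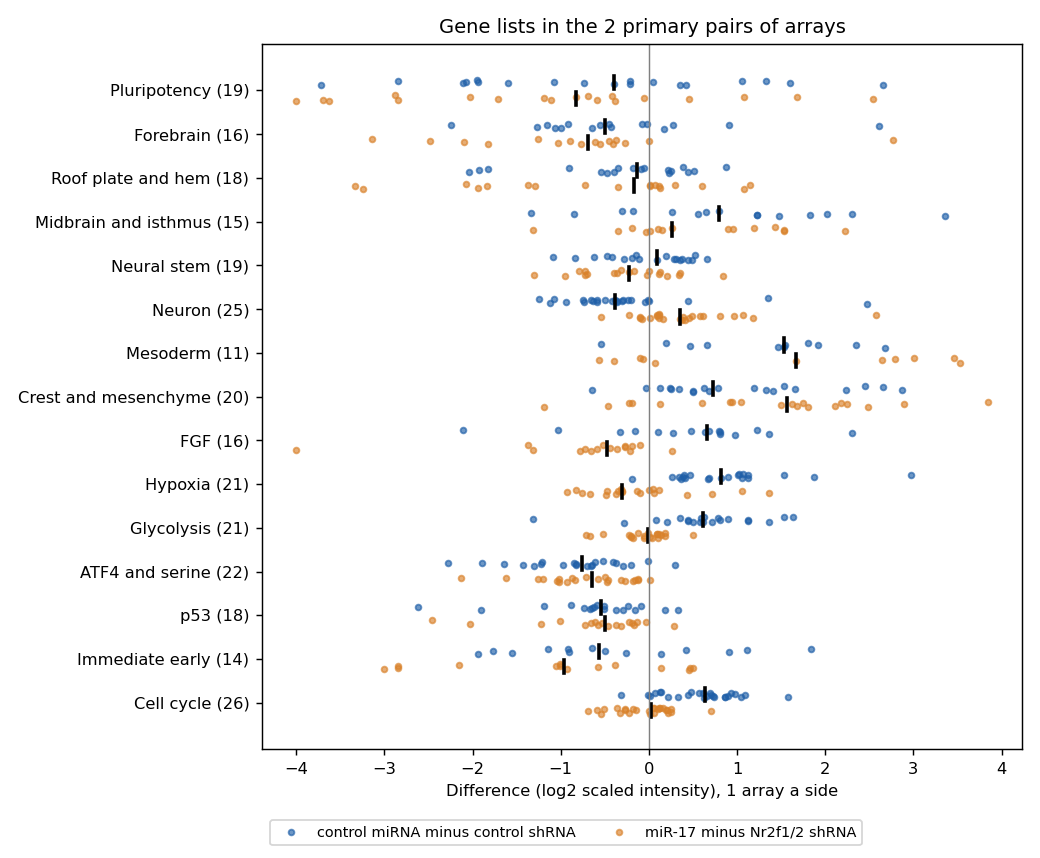
Points are genes of 15 lists, with the number well above background on both primary control arrays in brackets, placed by their log2 difference in the control pair (blue) and in the miR-17 and Nr2f1/2 shRNA pair (orange); black bars are medians. The medians of mesoderm and mesenchyme lie right of 0 and those of ATF4 and p53 genes left of 0 in both pairs, whereas hypoxia (medians 0.82 and −0.30), FGF (0.66 and −0.48) and neuron genes (−0.39 and 0.35) lie on opposite sides.

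Oxygen-responsive and glycolytic genes were higher in the control miRNA culture, and this difference was not shared by the other primary pair. Of 21 hypoxia genes 20 were positive and 9 at least 2-fold higher, with a median difference of 0.82. Over all genes above background on both control arrays 8.63% were higher by that amount. The miR-17 and Nr2f1/2 shRNA pair gave 8 positive and 13 negative, with a median of −0.30. Hypoxia genes are switched on when oxygen falls and hydroxylases no longer mark HIF proteins for destruction, and most enzymes of glycolysis belong to the same program. Adm (adrenomedullin), a secreted peptide and a sensitive HIF target, read −0.41 on the control shRNA array, 2.56 on the control miRNA array, −0.19 on the Nr2f1/2 shRNA array and −0.15 on the miR-17 array. The control miRNA array stood alone, 7.85-fold above its control, and limma did not call the gene (adjusted p = 0.296).

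Carriers of glucose and lactate were high on the same array. Slc2a1 (Glut1) read 5.54, 5.75 and 5.56 on the control shRNA, Nr2f1/2 shRNA and miR-17 arrays and 7.07 on the control miRNA array. Slc2a3 (Glut3), the neuronal carrier, read 3.89, 4.16 and 4.16 there and 5.53 on the control miRNA array. The lactate exporter Slc16a3 (Mct4) read 5.02, 5.14 and 4.93 against 6.38. In each case the control miRNA array was the only high one, and none of the 3 passed limma (adjusted p = 0.414, 0.297 and 0.463).

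Enzymes of the pathway differed by less. Of 21 glycolysis genes 19 were positive and 5 at least 2-fold higher, with a median of 0.61 in the control pair and −0.00 in the other, and none passed limma. Hk2, the inducible hexokinase, read 0.95 and 2.08, Pgk1 6.88 and 7.47, and Ldha, which makes lactate, 7.93 and 8.51. Eno2, the neuronal enolase, was the one 2-fold lower, at 3.21 and 1.90. Ndrg1, a stress-responsive gene, and Car9, a carbonic anhydrase at the cell surface, were higher in both pairs (differences 1.87 and 1.06, 1.12 and 1.36) and were the 2 of 21 hypoxia genes that limma called (adjusted p = 0.033 and 0.0148). Neither call held in every fit with an array left out, and each was lost in more than 1 of those fits. Vegfa, the angiogenic HIF target, read 4.41 and 4.67.

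The core HIF motif, ACGTG, was searched on both strands (as CACGT on the other) in RefSeq promoters of build GRCm38.p6, from 250 bases before to 50 after each start. It was found in 16 of 29 promoters of hypoxia genes (55.2%) and 16 of 32 of glycolysis genes (50%), some genes having several, and in 6447 of all 32851 promoters (19.6%). The stretches below are 60 bases each, shown because these genes differed at least 2-fold in the control pair, with the motif in capitals.
Slc2a1, chr4:119108681-119108740, plus strand: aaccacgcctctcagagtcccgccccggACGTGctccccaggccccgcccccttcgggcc
Hk2, chr6:82774475-82774534, minus strand: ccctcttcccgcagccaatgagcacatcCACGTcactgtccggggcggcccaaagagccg
Ankrd37, chr8:45999851-45999910, minus strand: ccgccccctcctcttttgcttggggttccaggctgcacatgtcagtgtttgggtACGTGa
Egln3, chr12:54204065-54204124, minus strand: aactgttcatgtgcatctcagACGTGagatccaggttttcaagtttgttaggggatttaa
A match is a description of letters and not of binding. The lists were drawn up from known responses, so their shares of matches do not bear on the array differences. Egln3, one of the oxygen-sensing hydroxylases, read −0.36 and 0.66 on the control arrays and −0.12 and −0.78 in the other pair. Ankrd37, a small HIF target, read 1.48 and 2.60, then 1.28 and 0.81.

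**Figure D3:**
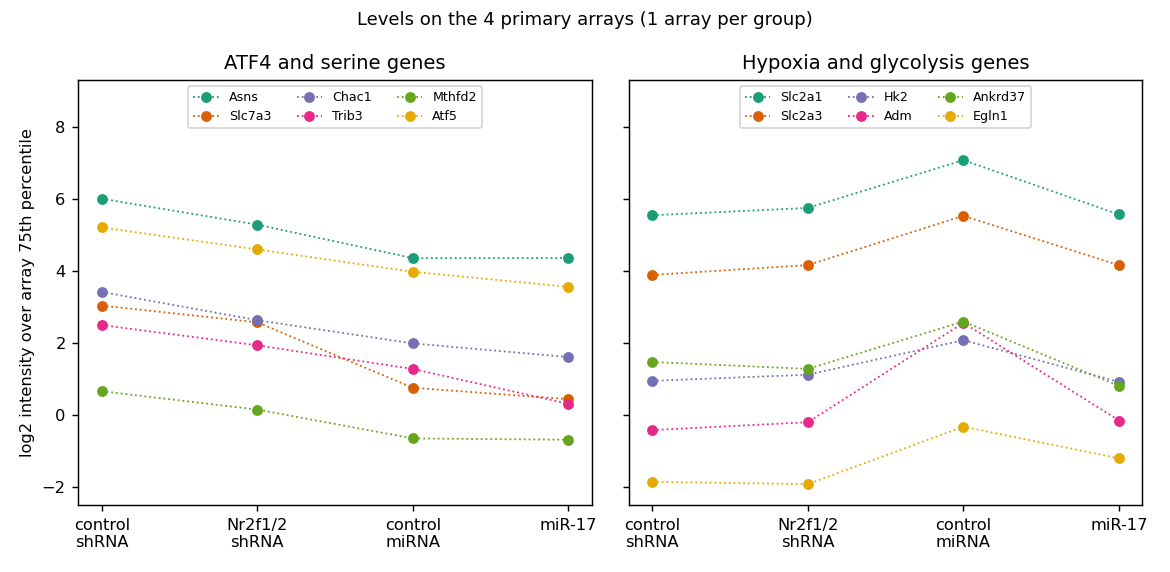
Log2 intensity over the array's 75th percentile on the 4 primary arrays, 1 array per group, for 6 ATF4-regulated genes (left) and 6 hypoxia or glycolysis genes (right); dotted lines only join a gene's values. The ATF4 genes are lower on both miRNA arrays than on both shRNA arrays (Asns 6.00 and 5.28 against 4.36 and 4.36), and the hypoxia genes are high on the control miRNA array alone (Adm 2.56, with the others between −0.41 and −0.15).

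Genes of the integrated stress response and amino acid supply were lower with the miRNA vectors in both pairs. ATF4 is a transcription factor translated when amino acids run short or proteins misfold, and its targets import and make amino acids. Of 22 ATF4 and serine pathway genes well above background on both control arrays 7 were at least 2-fold lower and none higher, and 5 passed limma as lower. Over all genes above background on both control arrays 4.26% were 2-fold lower, and 3.2% of all genes passed limma as lower. Of the 22, 21 differences were negative in the control pair and 21 in the other, with medians of −0.76 and −0.65. The median stayed between −1.10 and −0.69 under the other scalings and filters tried.

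Slc7a3, a carrier of arginine and lysine, read 3.04 and 2.58 on the shRNA arrays and 0.76 and 0.45 on the miRNA arrays, 4.85-fold lower in the control pair (limma log2 −2.20, SE 0.25, adjusted p = 0.00767, and 0.0521 without the miR-17 array). Asns, asparagine synthetase, read 6.00 and 5.28 against 4.36 and 4.36 (adjusted p = 0.0423, and 0.0113 to 0.146 with each array left out). Nupr1, a small stress-induced chromatin protein, read 0.69 and 0.15 against −1.20 and −0.87 (adjusted p = 0.0256, and 0.0108 to 0.0938 with each left out). For each of the 3 the groups did not overlap, which says little with 2 arrays a side. The share of all genes without overlap was not counted. Chac1, which breaks down glutathione, read 3.42 and 2.63 against 1.99 and 1.61 (adjusted p = 0.0651), and Trib3, a pseudokinase that feeds back on ATF4, read 2.50 and 1.94 against 1.28 and 0.31 (adjusted p = 0.072).

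The messenger of Atf4 itself read 6.22 and 5.81 on the control arrays, and the enzymes of serine synthesis differed little, with Phgdh at 4.56 and 4.56 and Psat1 at 4.04 and 3.84. Ddit3 (Chop), a stress factor downstream of ATF4, read 0.78 and 0.08. Of 18 unfolded protein response genes 2 were at least 2-fold higher and none lower, with a median of 0.06. The composite site bound by ATF4 with C/EBP partners, searched as TGATGNAA on both strands in the same RefSeq promoters, was found in 9 of 24 promoters of these genes (37.5%) and in 1304 of all 32851 promoters (3.97%). As with the HIF motif, that share does not bear on the array differences. Stretches of 60 bases with the match in capitals are shown for 4 genes with lower values.
Asns, chr6:7693210-7693269, minus strand: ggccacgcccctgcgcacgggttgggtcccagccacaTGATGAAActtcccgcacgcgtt
Chac1, chr2:119351023-119351082, plus strand: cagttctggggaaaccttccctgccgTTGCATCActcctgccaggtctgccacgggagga
Nupr1, chr7:126625547-126625606, minus strand: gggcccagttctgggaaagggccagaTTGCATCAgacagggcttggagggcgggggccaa
Slc7a11, chr3:50443627-50443686, minus strand: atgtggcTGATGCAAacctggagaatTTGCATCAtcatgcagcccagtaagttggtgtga
Slc7a11, the cystine carrier, read −4.25 and −4.62 on the shRNA arrays. It was not well above background on either miRNA array and was at least 1.52-fold lower in the control pair, a direction fixed by the filter.

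Targets of p53, the factor that responds to DNA damage, were also lower. Of 18 genes 3 were at least 2-fold lower and none higher, where 4.26% of all genes above background on both control arrays were lower. Negative differences numbered 16 in the control pair and 17 in the other. In limma 4 of the 18 passed as lower, against 3.2% of all genes. Gdf15, a secreted stress cytokine that ATF4 and p53 both induce, read 0.85 and 0.16 on the shRNA arrays and −1.77 and −2.29 on the miRNA arrays, 6.13-fold lower in the control pair (limma log2 −2.54, SE 0.32, adjusted p = 0.0102, and 0.063 without the miR-17 array). Ccng1, a cyclin under p53 control, read 4.04 and 3.77 against 3.40 and 3.12 (adjusted p = 0.105). Mdm2, which degrades p53, read 3.70 and 3.88, and Cdkn1a (p21), the cell cycle inhibitor, read 3.25 and 2.67.

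Immediate early genes, which switch on within minutes of a stimulus or of handling, were more often lower than higher. Fos read 2.10 and 3.0 on the shRNA arrays and 0.33 and 0.16 on the miRNA arrays (limma log2 −2.31, SE 0.34, adjusted p = 0.0146, and 0.0638 and 0.084 without the control miRNA or the miR-17 array). Egr1 read 3.40 and 4.16 against 2.49 and 2.00 (adjusted p = 0.0399 in limma), a call that did not hold in every fit with an array left out. Klf2, a zinc finger factor counted also among the pluripotency genes, read −0.61 and −0.27 against −2.55 and −3.12 (adjusted p = 0.00786), and held with each array left out. Ier3, a stress-induced survival factor, read −0.58 and 1.26 on the control arrays and −0.66 and −0.52 in the other pair. Of 14 well above background on both control arrays, 4 were at least 2-fold lower and 2 higher, and 6 passed limma as lower. The shares over all genes were 4.26% and 8.63% on such arrays, and 3.2% lower in limma. Negative differences numbered 9 in the control pair and 10 in the other, with medians of −0.57 and −0.97.

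Cell cycle genes were slightly higher in the control pair alone. Of 26 measured 24 were positive, with a median of 0.64, and 0.03 in the other pair. Only 3 of the 26 were at least 2-fold higher, near the 8.63% of all genes well above background on both control arrays. Mcm5, of the replicative helicase, read 1.56 and 3.14 on the control arrays and 2.17 and 2.36 in the other pair. Mki67, a general marker of cycling cells, read 4.95 and 5.02. Of the 26 only E2f1 passed limma (adjusted p = 0.0413), and not with any of the arrays left out (adjusted p from 0.0762 to 0.208).

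FGF ligands and feedback genes were higher in the control pair and not in the other. Of 16 measured 12 were positive in the control pair and 1 in the other, with medians of 0.66 and −0.48. Spry1, an inhibitor that FGF signalling induces, read 3.94 and 4.74 on the control arrays and 4.08 and 2.77 in the other pair. Il17rd (Sef), another FGF antagonist, read 1.88 and 3.25, then 2.02 and 1.75. Etv4 and Etv5, the transcription factors downstream of FGF, differed by 0.48 and 0.64 in the control pair and −0.52 and −0.22 in the other. Fgf4, described above with the pluripotency genes, was the 1 of 16 that limma called.

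Some Wnt genes were higher in both pairs. Wif1, a secreted Wnt antagonist, read −3.91 and −3.88 on the shRNA arrays and −1.11 and −0.95 on the miRNA arrays, 7.01-fold higher in the control pair (limma log2 2.87, SE 0.18, adjusted p = 0.00513). The direct target Axin2 read −1.07 and −1.0. Of 23 Wnt genes, all well above background on both control arrays, 5 were at least 2-fold higher and 1 lower. Over all such genes the shares were 8.63% and 4.26%. Among 18 BMP genes Id3, a direct target, read 2.22 and 2.44 against 4.16 and 3.33 (adjusted p = 0.0451 in limma). That call did not hold in every fit with an array left out. Of 17 BMP genes well above background on both control arrays 3 were at least 2-fold higher and 1 lower, beside the same shares.

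The enzymes that set retinoic acid levels rose on both sides of the pathway. Cyp26b1, which degrades it, read −2.40 and −2.22 on the shRNA arrays and 0.26 and −0.43 on the miRNA arrays, 6.35-fold higher in the control pair (limma log2 2.23, SE 0.28, adjusted p = 0.0103). Aldh1a2, which makes it, was not well above background on the control shRNA array and was at least 4.47-fold higher on the control miRNA array (adjusted p = 0.0101, and 0.053 and 0.0693 without the control miRNA or the miR-17 array). The binding protein Crabp2 read 5.15 and 3.44 on the control arrays and 4.96 and 5.38 in the other pair. The receptors Rara and Rarg differed by 0.04 and 0.13.

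Nr2f1 and Nr2f2, the factors the series set out to lower, were themselves different between the controls. Nr2f1 read 6.16 on the control shRNA array and 5.07 on the control miRNA array, 2.12-fold lower with 2 probes alike. It read 5.37 on the Nr2f1/2 shRNA array and 5.52 on the miR-17 array. Nr2f2 read 3.32 and 2.21 on the control arrays, 2.16-fold lower, and 2.82 and 2.30 on the other 2. On the control miRNA array both genes were thus below their values on the knockdown array, and neither passed limma (adjusted p = 0.39 and 0.08). H19, an imprinted RNA, was another gene of the control pair alone, at 1.78 and −0.88 and then 1.32 and 1.38, but its 7 probes gave differences from −2.66 to 1.23.

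Some of the largest positive differences were read by probes with a repeat. Of the 12 genes highest in both pairs, 6 were read by a probe holding CACACACA, a dinucleotide repeat, against none of the 12 lowest. Over all kept probes 219 held that run. Their median difference was 2.30, with 2.53 in the other pair, and 67.1% were at least 2-fold higher, against 16.3% of all 36569 kept probes. The complementary run TGTGTGTG, on 311 probes, gave a median of −0.19 and 12.5% higher. GAGAGAGA, on 142 probes, gave 0.73 and 40.8%, and its complement CTCTCTCT, on 115, gave 0.04 and 13%.

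Some genes have a probe with the run and one without. The genes shown were chosen after their values were seen. Each line is a stretch of 30 bases from the array's own probe, with the longest run of the repeat in capitals where there is one.
Slc35e2, difference 3.76: ttgtgtatgaACACACACACatatacacac
Slc35e2, difference −0.24: tttgtgattgcccattctgggaagttggca
Smo, difference 3.18: cacacacagACACACACACACatacactct
Smo, difference 0.88: tcatagtgccccacattcaagaaccagaca
Cat, difference 3.21: cacatacCACACACACACACACAtgcaata
Cat, difference 0.60: gacaatgtcactcaggtgcggacattctac
Acot3, difference 4.89: gtgtACACACACACatatacacacaagcac
Snap25, difference 2.47: CACACACACACACACACACAaagtggattt
For Slc35e2, a nucleotide-sugar carrier family member, for Smo, the Hedgehog signal transducer, and for Cat, catalase, the probe with the repeat gave the larger difference. In the other pair the 2 Smo probes differed by 3.41 and 0.07 and the 2 Cat probes by 3.45 and 0.51. The probes of Acot3, Snap25 and Lhx6, an interneuron factor (2.61 and 2.76 in the 2 pairs), all hold the run, and no level of these genes is drawn from them. Leaving out every such probe gave 4004 higher and 1181 lower genes in the control pair. The part of such probes in other differences was not tested.

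**Figure D4:**
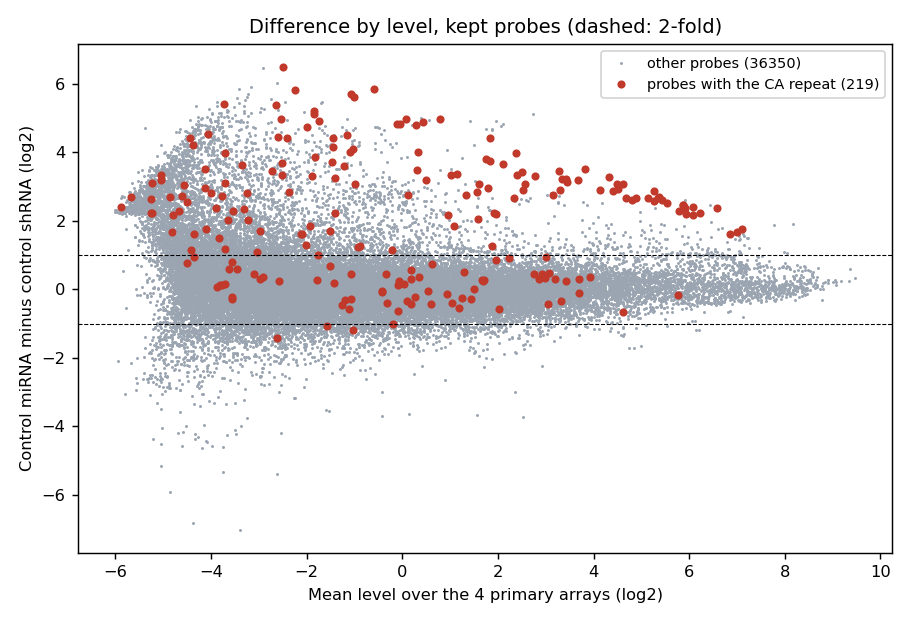
Each point is 1 kept probe, with its mean log2 level over the 4 primary arrays on the horizontal axis and its difference, control miRNA minus control shRNA, on the vertical axis; red points are the 219 probes with the CA repeat and dashed lines mark 2-fold. Differences spread upward at low levels, and 67.1% of the red points lie above the upper dashed line.

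Dim genes that were kept were also higher as a group. A gene near the detection limit can be kept through the arrays where it is high. On the 2 miRNA arrays 64.4% and 67.3% of all probes were well above background, against 57.0% and 62.5% on the 2 shRNA arrays. The part of this in the shares below was not tested. Among genes with a mean level of −4 or less over the 4 primary arrays, 3081 in number, the median difference was 1.17 and 54.1% were at least 2-fold higher, against 0.24 and 22.3% of 5908 genes between −4 and −2, −0.02 and 11.2% of 5315 between −2 and 0, and 4.44% of the 5991 genes with a mean above 2. Odorant receptors, which neural progenitors are not known to use, give a gauge of this. Of 1197 olfactory receptor probes 112 were well above background on the control shRNA array, 151 on the Nr2f1/2 shRNA array, 242 on the control miRNA array and 275 on the miR-17 array. For 310 vomeronasal receptor probes the counts were 30, 40, 86 and 111. At passage 2 the control miRNA array had 126 olfactory probes, fewer than the 156 of the control shRNA array.

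The control miRNA array also had more intergenic regions with signal on both strands than the control shRNA array. Of 1067 regions with a probe on each strand, both probes were well above background in 55.2% on the control shRNA array and 72.4% on the control miRNA array. The Nr2f1/2 shRNA and miR-17 arrays had 67.2% and 76.5%. At passage 2 the control and Nr2f1/2 shRNA arrays had 64.7% and 73.1%, and the control miRNA and miR-17 arrays 54.7% and 66.8%. A high share was thus not particular to the miRNA arrays. The multicopy Y-linked spermatid genes Ssty1, Ssty2, Sly and Orly, read by 15 kept probes, were higher by 3.37 to 5.59 in the control pair. In the other pair they were higher by 2.59 to 5.00. Of the 15 probes 15 were well above background on each miRNA array, against 5 and 7 on the shRNA arrays. The filter fixed part of this, since a probe dim on both shRNA arrays was kept only through the miRNA arrays. Single-copy Y genes did not follow: Eif2s3y read 3.46 and 2.82, and Ddx3y 0.93 and 0.62. Among the genes above, Hoxc13 and Tbx5 have a mean of −4 or less over the 4 primary arrays. Hoxa7, Etv2, Gbx2, Pax5, En1, Vsx1, Wif1 and Ets1 are among those with a mean between −4 and −2. Meox2 and Tbx1 are among those with a mean between −2 and 0. The part of this shift in these and other named genes was not tested. Dppa5a, Tbr1, Col3a1, Slc2a1 and Asns were well above background on all 4 primary arrays.

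**Figure D5:**
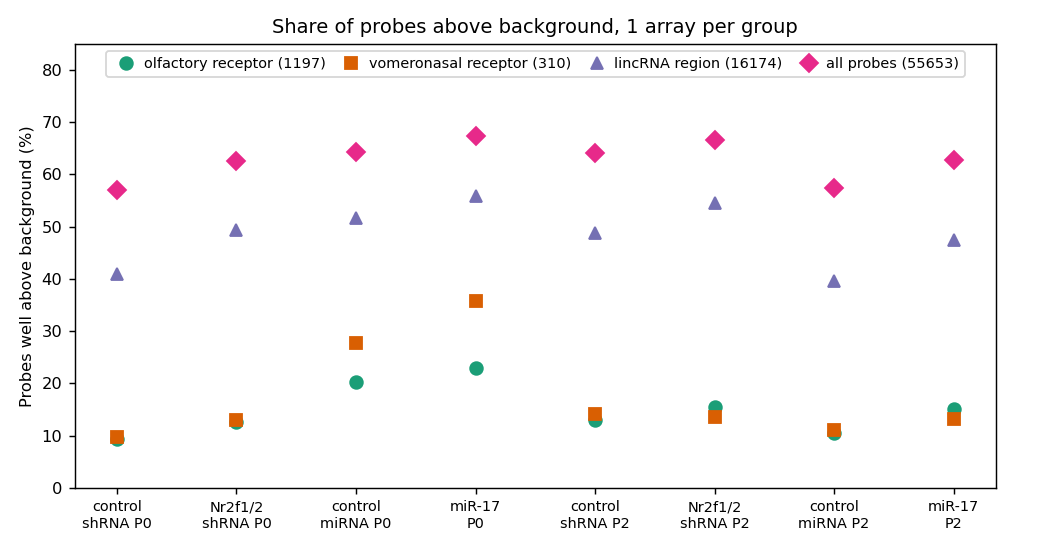
Share of probes well above background (percent) on each of the 8 arrays for 4 kinds of probe, with the number of probes in brackets. The 2 primary miRNA arrays are highest for olfactory (20.2% and 23.0%) and vomeronasal receptors (27.7% and 35.8%), and the tertiary miRNA arrays are not.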

How the data were processed

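Total RNA of 8 cultures was labelled with Cy3 (50 ng each, per the labels' protocols) and read on 8 one-colour Agilent mouse arrays of 1 slide, with Agilent Feature Extraction 10.7.3.1, per the submitters' processing notes. Spot intensity, background-subtracted by Feature Extraction per the file headers, was taken from the deposited scanner output. A deposited table by the authors holds signal values, linear and uncentred, that equal this intensity over 1 constant per array, and served as an alternative. The log2 values were computed here from the deposited intensity minus each array's 75th percentile.

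Outlier spots and controls were left out, spots of a probe averaged, and probes well above background on at least 2 of the 4 primary arrays kept: 36569 of 55653. The probe with the highest mean over the primary arrays stood for a gene; 7124 of the 25581 genes had several. Of 55681 probes 26425 took symbols from RefSeq by accession and 29256 kept the file's name. Values at a dim side were bounded by the lowest signal among probes above background on that array (or the probe's own, if higher), giving "at least" folds. Calls were at least 2-fold, or an adjusted p under 0.05 in limma 3.58.1 (R 4.3.3), over 2 residual degrees of freedom. The scripts (Python 3.11.15) were tested on simulated data. The precision is limited by the number of arrays.

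The comparison and the 52 gene lists (876 genes) were chosen with earlier results of these data known. Named genes are the 12 highest and 12 lowest shared with the other primary pair by at least 2-fold, the 8 largest bounds each way, the 6 highest and lowest that the other pair lacks (under 1.25-fold or opposite), up to 6 per list with the largest absolute difference, and Nr2f1 and Nr2f2; placeholder names were left out. Other list members named with values were chosen by role after their values were seen. Promoter sequences are RefSeq's, build GRCm38.p6.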

Additional observations from a re-analysis of the deposited data

Results flagged for a closer look

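The median difference between the control cultures, control miRNA minus control shRNA, had opposite signs at passage 0 and passage 2 in 25 of 52 gene lists. The 5 given here are those of at least 10 genes with a median of at least 0.5 in size at both passages. The difference between the passages was not tested, since each passage has 1 array a side. Mesoderm genes had a median of 1.53 at passage 0 and −0.85 at passage 2. FGF ligands and feedback genes had 0.66 and −1.18. Targets of p53 had −0.55 and 0.74. Cell cycle genes had 0.64 and −1.05. Immediate early genes had −0.57 and 0.81.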

How the results depend on the processing

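No pairing by replicate was possible because the labels give no replicate numbers and each group has 1 array. With slide row as a block, chosen after seeing the data, which sets both controls in 1 row and leaves 1 residual degree of freedom, limma called 3948 genes higher and 1071 lower. The count of genes at least 2-fold higher, 4111 as reported, was 1791 with normexp background correction, 1856 with only genes well above background on all 4 primary arrays, 6418 at a 1.5-fold limit and 1961 at a 4-fold limit. The count lower, 1182, was 418 with normexp, 1825 with quantile normalization, 2707 with arrays centred on their medians, 3291 at 1.5-fold and 155 at 4-fold. The limma count higher, 3344, was 1894 with the filter on all 4 arrays and 1784 in a fit of all 8 arrays, and 1248 to 3380 with each array left out. The limma count lower, 819, was 1629 with normexp, 1322 with quantile normalization, 4311 with median centring, 398 without a filter, 1503 with a trended prior and 144 in the fit of all 8 arrays, and 229 to 374 with each array left out. The cause of these shifts was not tested, beyond the fold limits and the smaller sets of genes or arrays by construction. Of 329 named genes 71 dropped below 2-fold with normexp and 31 with median centring, where 21 others passed it. Slc35e2 alone reversed, to −0.24 without probes holding the CA repeat, where its other probe is read. Dim probes have only bounds, and 1 array a side limits every value.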
